A study of Mus musculus with 12 samples.

Results

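The genes described here are the 7 CDK inhibitor genes of the mouse, Cdkn2a, Cdkn2b, Cdkn2c and Cdkn2d of the INK4 family and Cdkn1a, Cdkn1b and Cdkn1c of the CIP/KIP family. They were picked by name, as the members of both families, from 55536 genes quantified by RNA-seq in primary mouse oligodendrocyte precursor cells (OPCs). All 7 passed the filter on low counts that left 18995 genes for testing.

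CDK inhibitors are small proteins that hold back cyclin-dependent kinases and so the passage from G1 into S phase. The INK4 proteins (p16Ink4a, p15Ink4b, p18Ink4c and p19Ink4d) bind CDK4 and CDK6, whereas the CIP/KIP proteins (p21, p27 and p57) act on a wider range of cyclin and CDK complexes. Cdkn2a is unusual in that it also encodes p19Arf, which binds MDM2 and thereby stabilizes p53, and the Ink4a/Arf locus with the adjacent Cdkn2b is a well known target of Polycomb repression. In OPCs, p27 is known for its role in cell-cycle exit at the onset of differentiation.

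Brains of pups aged P4 to P6 were pooled, and OPCs were isolated by Sox10GFP+ sorting or with CD140a beads and grown in proliferation medium with PDGFaa and bFGF. The mice were Sox10:Cre-RCE:LoxP (EGFP), with the Cre on C57BL/6j and the reporter on a mixed background, and Sox10-driven Cre marks the whole oligodendrocyte lineage and not OPCs alone. The labels name Sox10GFP+ cells as the source of all 12 libraries, while the protocol allows either isolation, so which one was used for which library is not given in the sources used here. The 4 groups of 3 libraries were Ctr (neither agent), EZH2i (the EZH2 inhibitor EPZ011989 at 1.5 μM for 4 days, renewed every 48 h), IFN-γ (100 ng/ml for 6 h without the inhibitor), and IFN-γ + EZH2i (4 days of inhibitor, with IFN-γ added for 6 h at the end). Replicates came from different litters. No vehicle for the groups without inhibitor is named in the labels, which also list EAE as the mouse model of all 12 libraries although these are pup cultures.

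Library totals ran from 17403896 (Ctr replicate 2) to 66546017 estimated counts. Levels are given as CPM, counts relative to library size after TMM scaling, to compare libraries for one gene. TPM also correct for transcript length and were used to compare genes. The summed level of 7 OPC markers was 705 to 1561 TPM over the libraries, and that of 7 oligodendrocyte markers was 320 to 851 TPM. The 6 microglia markers summed to at most 0.701 TPM and the 6 fibroblast and mural markers to at most 1.07 TPM. The 5 astrocyte markers summed to 54.8 to 277 TPM. The 5 neuron markers summed to 14.5 to 42.9 TPM without IFN-γ and to 295 to 709 TPM with it. In both IFN-γ comparisons, 3 of the 5 had a positive log2 fold change and 2 a negative one. Ezh2, the target of the inhibitor, averaged 49.4 ± 5.21 CPM in the Ctr libraries against 39.6 ± 7.66 CPM under EZH2i (SD, n = 3), a log2 fold change of −0.32 that did not pass edgeR's quasi-likelihood test (SE 0.16, adjusted p = 0.806). Its transcript does not report on the activity of the inhibited enzyme.

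The Cdkn2a gene (ENSMUSG00000044303) lies on the minus strand of chromosome 4, at chr4:89274471-89294653 in GRCm38, and has 2 annotated transcripts that begin at different exons. The p16Ink4a transcript (Cdkn2a-201) starts with an exon of 207 bases at chr4:89281986-89282192, and the p19Arf transcript (Cdkn2a-202) with an exon of 320 bases at chr4:89294334-89294653. The start of the p19Arf exon is 12461 bases upstream. Both are spliced to the same exon 2 of 341 bases at chr4:89276645-89276985, and their last exons differ only in 70 additional bases of the p16Ink4a transcript. The annotated junctions of exon 1 with exon 2, from the GENCODE M21 transcripts, are shown because reads across the lower case part are what tells the transcripts apart. The last 30 bases of exon 1 are in lower case and the first 30 bases of the shared exon 2 are in capitals, on the transcribed strand.
Ink4a junction: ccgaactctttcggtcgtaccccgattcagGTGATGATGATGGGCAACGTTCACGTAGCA
Arf junction: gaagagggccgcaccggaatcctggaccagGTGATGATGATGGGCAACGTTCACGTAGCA
Exon 1 of the p16Ink4a transcript holds 126 coding bases, which end on a complete codon. Exon 1 of the p19Arf transcript holds 190 coding bases, which leave 1 base of an open codon, so the identical capitals are read in different frames and the proteins share no sequence there.

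Cdkn2b (ENSMUSG00000073802) is on the same strand at chr4:89306299-89311039, with 11645 bases between it and the p19Arf exon. The RefSeq promoter table for GRCm38.p6 held windows for 6 of the 7 genes, 9 windows in all. Each window runs from 250 bases before an annotated start to 50 after it. The upstream 210 bases are shown for the 3 promoters of this locus, with CG dinucleotides in capitals, because Cdkn2a and Cdkn2b are the members called for the mean effect of EZH2i. They are the minus strand of chr4:89294660-89294869 (Arf), chr4:89282233-89282442 (Ink4a) and chr4:89311073-89311282 (Cdkn2b).
Arf promoter: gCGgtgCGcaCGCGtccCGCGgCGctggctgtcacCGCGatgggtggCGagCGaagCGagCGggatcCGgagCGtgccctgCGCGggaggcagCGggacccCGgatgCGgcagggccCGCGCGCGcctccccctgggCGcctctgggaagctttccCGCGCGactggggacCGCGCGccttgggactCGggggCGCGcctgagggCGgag
Ink4a promoter: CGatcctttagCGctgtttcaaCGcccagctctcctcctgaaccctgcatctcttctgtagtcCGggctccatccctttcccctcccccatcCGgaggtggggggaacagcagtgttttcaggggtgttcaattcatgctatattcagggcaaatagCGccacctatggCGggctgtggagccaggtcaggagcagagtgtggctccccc
Cdkn2b promoter: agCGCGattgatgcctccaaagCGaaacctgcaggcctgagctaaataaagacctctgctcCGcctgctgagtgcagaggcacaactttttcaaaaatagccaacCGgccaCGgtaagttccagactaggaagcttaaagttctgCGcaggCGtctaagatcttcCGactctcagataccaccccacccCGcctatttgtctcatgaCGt
Over the full 300 bases, the Arf window held 45 CG dinucleotides, more than 98.1% of the 32851 windows of the table, whose median was 7. The Ink4a window held 12 and the Cdkn2b window 18. GGGCGG, the core of a GC box, was searched on both strands and occurred 3 times in the Arf window, 1 time in the Ink4a window and 1 time in the Cdkn2b window. It is found in 35.7% of all windows. TATAAA, found in 13.6% of all windows, and the E2F-type motifs TTTGGCGC and TTTCGCGC, found in 0.514% and 0.323%, were not present on either strand in any of the 9 windows.

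In Ctr OPCs, the CDK inhibitor genes stood at 3 levels on the TPM scale. Cdkn1a (26.5 ± 2.17), Cdkn1b (24.3 ± 3.15) and Cdkn2c (23.1 ± 7.18) were highest, and the library ranges of neighbours in this order overlapped (SD, n = 3). Cdkn2d (13.3 ± 2.25), Cdkn2b (10.4 ± 0.901) and Cdkn2a (9.56 ± 1.14) followed, again with overlapping neighbours, and Cdkn1c (3.41 ± 1.62) was below all of them in every library. With EZH2i, Cdkn2a was second to Cdkn1a at 33.4 ± 13.1 TPM. Cdkn1a stayed the gene with the highest mean in all 4 groups, but its range overlapped that of the next gene in each.

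**Figure D1:**
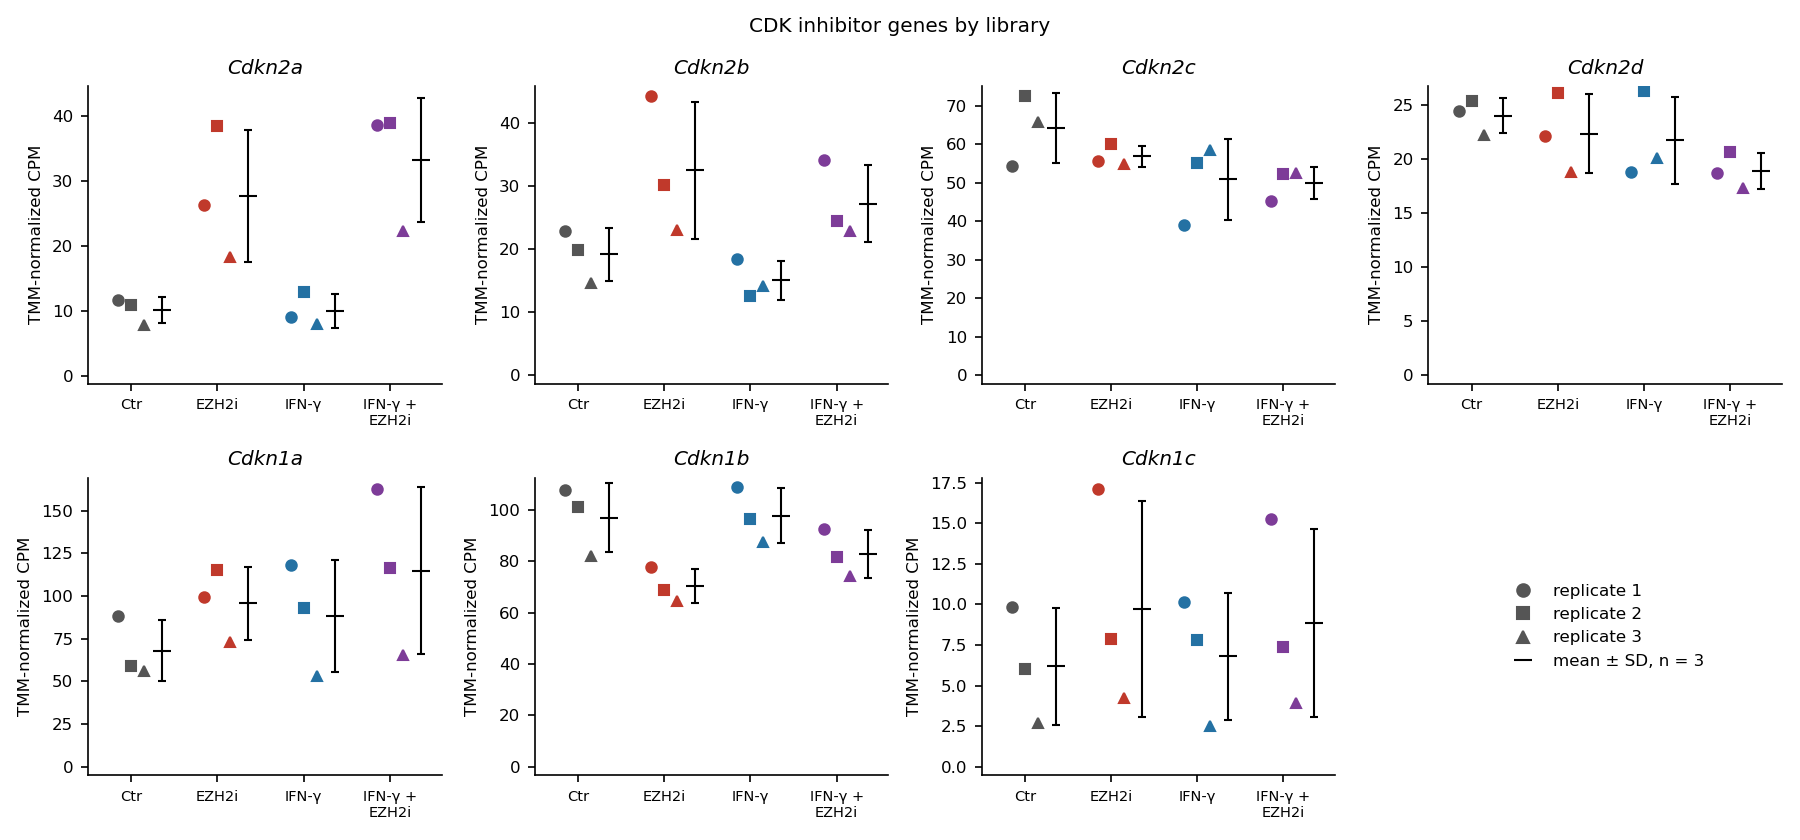
The 7 CDK inhibitor genes in each library, in TMM-normalized CPM on linear axes. Symbols mark the replicate number and bars the mean ± SD of 3 libraries; all Cdkn2a and Cdkn2b values with EZH2i lie above those of the group without it, whereas the other genes overlap, apart from lower Cdkn1b values in EZH2i than in Ctr and lower Cdkn2c values in IFN-γ + EZH2i than in EZH2i.

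Cdkn2a was higher with EZH2i, with and without IFN-γ. In Ctr its levels were 11.7, 11.0 and 7.87 CPM in replicates 1, 2 and 3, and EZH2i libraries had 26.3, 38.5 and 18.3 CPM in the same order. The IFN-γ libraries had 9.01, 13.0 and 8.02 CPM, and the IFN-γ + EZH2i libraries 38.8, 39.0 and 22.3 CPM. The lowest library with EZH2i was thus above the highest without it, and replicate 3 was the lowest in every group. The log2 fold change was 1.45 for EZH2i against Ctr (SE 0.31, a 2.73-fold higher level), which missed the threshold of 0.05 (adjusted p = 0.0816, edgeR's quasi-likelihood test, Benjamini-Hochberg adjustment over the 18995 genes). In the presence of IFN-γ it was 1.74 (SE 0.31, 3.33-fold, adjusted p = 0.0401), and over both IFN-γ levels it was 1.59 (SE 0.22, 3.02-fold, adjusted p = 0.00274). The interaction, the effect with IFN-γ minus that without it, was 0.29 (95% confidence interval −0.65 to 1.22). It did not pass for any of the 7 members or any other gene in edgeR (0% of all genes) or DESeq2, and 127 of 18995 genes (0.669%) had an unadjusted p under 0.05.

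The mean effect of Cdkn2a stayed past the threshold in all 19 alternative fits, each library left out in turn included (adjusted p at most 0.0110). The separate comparisons were less firm. Without IFN-γ the adjusted p ranged from 0.000236 to 0.314 over 21 alternatives and was under 0.05 in 5, among them DESeq2 (0.0012). With IFN-γ the call was lost when any of 9 libraries was left out (adjusted p 0.0576 to 0.191), and was kept without EZH2i replicate 2, EZH2i replicate 3 or IFN-γ + EZH2i replicate 3.

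Both transcripts of Cdkn2a were higher with EZH2i, and the p16Ink4a transcript made up more of the gene. In Ctr the p16Ink4a transcript had 0.0896, 0.175 and 0.678 TPM, and EZH2i libraries had 8.80, 12.9 and 4.33 TPM. It had 0.275, 1.29 and 0.834 TPM in the IFN-γ libraries and 9.75, 14.1 and 6.76 TPM in those with IFN-γ + EZH2i. The groups with and without EZH2i did not overlap, and in Ctr replicates 1 and 2 only 3.19 and 2.95 estimated counts stood behind the value, against 197 to 404 in the 6 libraries with EZH2i.

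The p19Arf transcript carried most of the gene in every library. The Ctr libraries had 8.58, 10.7 and 8.51 TPM of it, against 22.6, 34.4 and 17.0 TPM with EZH2i. The IFN-γ libraries had 9.30, 14.7 and 7.67 TPM, against 30.9, 28.7 and 14.4 TPM with both agents. Without IFN-γ the groups did not overlap, whereas with IFN-γ the lowest value with EZH2i (14.4) was just under the highest without it (14.7).

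The make-up of the gene differed as well. The p16Ink4a transcript made up 3.34 ± 3.51% of the TPM of Cdkn2a in Ctr, 6.91 ± 3.60% in IFN-γ, 25.2 ± 4.24% in EZH2i and 29.6 ± 4.87% in IFN-γ + EZH2i (SD, n = 3). Its lowest share with EZH2i (20.3%) was above its highest without it (9.80%). Swapping libraries with and without EZH2i among themselves, separately for cultures with and without IFN-γ, gives 400 arrangements. Two-sided exact permutation tests were run on 3 values, and 0.005 is the smallest p that they allow. The log2(TPM + 0.1) of p16Ink4a was higher by 4.10, a 17.1-fold difference (exact permutation p = 0.005, adjusted p = 0.0075). On the same scale p19Arf was higher by 1.27, 2.42-fold (exact permutation p = 0.01, adjusted p = 0.01). The p16Ink4a share was higher by 22.3 percentage points (exact permutation p = 0.005, adjusted p = 0.0075), and all 3 were higher in 3 of 3 same-numbered pairs with and without IFN-γ.

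The size of the p16Ink4a difference depends on the pseudocount, since its levels without EZH2i are close to 0. It was 22.1-fold with a pseudocount of 0.01 and 6.56-fold with 1. Salmon divides reads of the shared exons between the transcripts, so the split rests on the reads that reach exon 1 and on the 70 bases of the last exon.

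**Figure D2:**
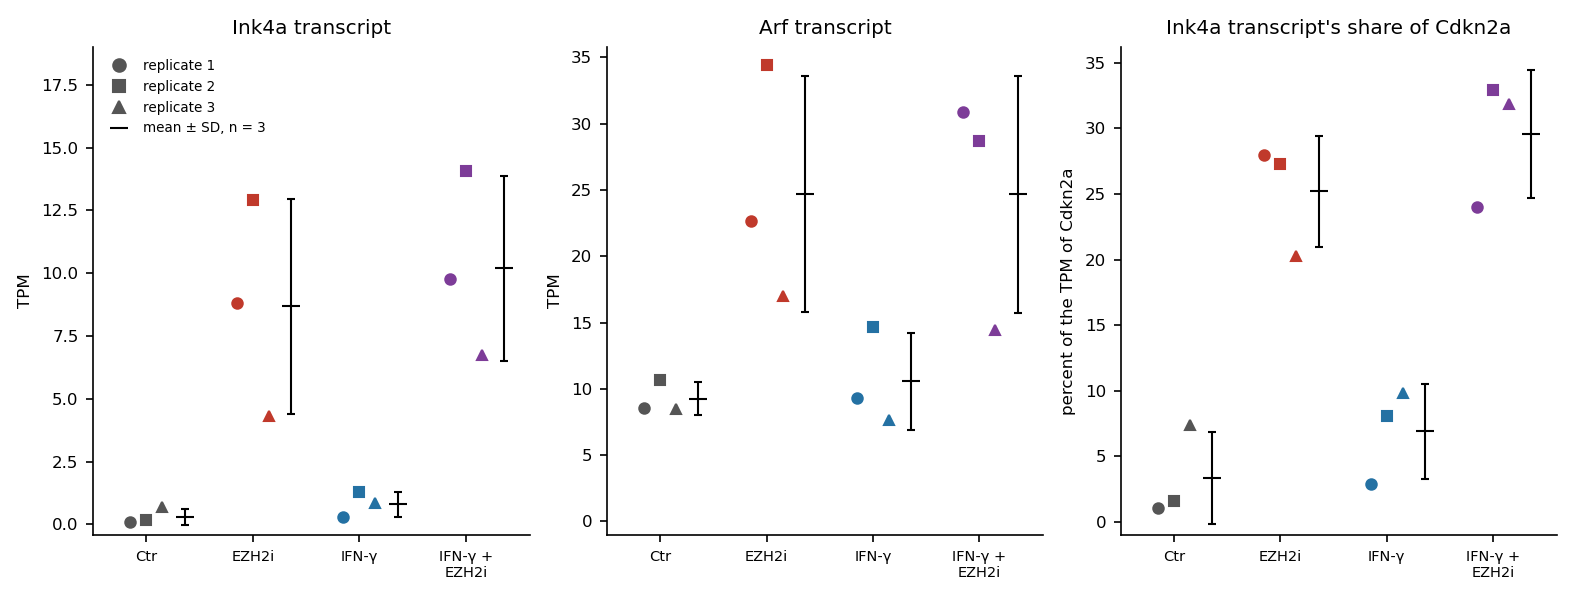
The p16Ink4a transcript (left) and p19Arf transcript (middle) of Cdkn2a in TPM, and the percent of the gene's TPM in the p16Ink4a transcript (right), for each of the 12 libraries with the mean ± SD of 3. In the libraries without EZH2i the p16Ink4a transcript is at 1.29 TPM or less, and in those with EZH2i at 4.33 TPM or more.

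Cdkn2b, which encodes p15Ink4b and is induced by TGF-β in many cells, was also higher with EZH2i. The Ctr libraries had 22.9, 19.9 and 14.7 CPM, and the EZH2i libraries 44.3, 30.1 and 23.0 CPM. With IFN-γ the levels were 18.5, 12.5 and 14.1 CPM, and with both agents 34.1, 24.5 and 22.8 CPM. The groups with and without EZH2i did not overlap in either comparison, although the lowest library of EZH2i was barely above the highest of Ctr. The log2 fold change was 0.76 without IFN-γ (SE 0.26, 1.69-fold, adjusted p = 0.426) and 0.85 with it (SE 0.26, 1.81-fold, adjusted p = 0.354), and neither passed edgeR's quasi-likelihood test. Over both IFN-γ levels it was 0.81 (SE 0.19, 1.75-fold, adjusted p = 0.0464). That call was close to the threshold. It was kept without EZH2i replicate 3 or IFN-γ replicate 1 and lost when any other of the 12 libraries was left out. The adjusted p then ran from 0.0562 (without IFN-γ + EZH2i replicate 3) to 0.118 (without IFN-γ replicate 2). The log2 fold change stayed between 0.66 and 0.91 in these fits. DESeq2 on all 12 libraries gave an adjusted p of 0.00337.

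In IFN-γ + EZH2i against IFN-γ, where same-numbered libraries deviated together, the fit with the replicate number as a block gave Cdkn2b an adjusted p of 0.00249 at a log2 fold change of 0.84 (SE 0.12), and Cdkn2a 7.57e-05. Within the numbered pairs of that comparison, Cdkn2b was 1.85, 1.96 and 1.62 times higher with EZH2i.

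Counted over the family, EZH2i against Ctr gave 0 of 7 members past the threshold (0.405% of all genes tested passed). The groups did not overlap for 3 of them: 2 were higher, Cdkn2a and Cdkn2b (7.37% of all genes), and 1 was lower, Cdkn1b (5.34%). DESeq2 called 1 member (308 over all genes), and at an unadjusted p under 0.05 there were 3, against 7.04% of all genes. IFN-γ + EZH2i against IFN-γ gave 1 of 7, Cdkn2a (0.353% of all genes, 0.347% higher). It gave 2 with the replicate block, Cdkn2a and Cdkn2b (3.94% of all genes). The groups did not overlap for the same 2, both higher (6.08% of all genes), and no member was lower without overlap (4.26%). The mean effect over both IFN-γ levels gave 2 of 7, both higher (2.22% of all genes, 2.03% higher).

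The remaining INK4 genes did not pass any of these tests of EZH2i. Cdkn2c (ENSMUSG00000028551, chr4:109660876-109667189, minus strand) encodes p18Ink4c. It had 54.3, 72.5 and 65.8 CPM in the Ctr libraries, 55.6, 60.0 and 54.9 CPM with EZH2i, 39.0, 55.2 and 58.6 CPM with IFN-γ, and 45.2, 52.2 and 52.6 CPM with both. These ranges overlapped for both EZH2i comparisons, and the mean effect of EZH2i was −0.10 on the log2 scale (95% confidence interval −0.35 to 0.14). Cdkn2d (ENSMUSG00000096472, chr9:21288410-21291407, minus strand) encodes p19Ink4d, which is not the p19Arf of Cdkn2a despite the similar name. It lay between 17.3 and 26.3 CPM in all 12 libraries. Its mean effect was −0.15 (−0.41 to 0.10), so these data leave room for a modest decrease or a small increase of either gene.

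Cdkn1a (ENSMUSG00000023067, chr17:29090976-29100727, plus strand) encodes p21, the best known transcriptional target of p53. Its levels were 88.4, 58.7 and 56.2 CPM for Ctr and 99.2, 115 and 73.0 CPM for EZH2i. They were 118, 93.0 and 53.2 CPM for IFN-γ and 163, 117 and 65.3 CPM for IFN-γ + EZH2i. All groups overlapped, and replicate 3 was the lowest in each. Every same-numbered pair was higher with EZH2i, by 1.12 to 1.96 times without IFN-γ and by 1.23 to 1.38 times with it. In the fit without a replicate block, however, the mean effect of 0.44 (SE 0.24, 95% confidence interval −0.09 to 0.97) did not pass (adjusted p = 0.532). With the block, edgeR gave 0.37 (SE 0.17, adjusted p = 0.280) for IFN-γ + EZH2i against IFN-γ.

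Cdkn1b (ENSMUSG00000003031, chr6:134920401-134925513, plus strand), which encodes p27, had lower values in EZH2i. The Ctr libraries were at 108, 101 and 82.1 CPM, and the EZH2i libraries at 77.7, 68.8 and 64.6 CPM. Those with IFN-γ were at 109, 96.5 and 87.7 CPM, and those with IFN-γ + EZH2i at 92.5, 81.6 and 74.1 CPM. EZH2i lay wholly below Ctr, whereas the groups with IFN-γ overlapped, and all 6 same-numbered pairs were lower with EZH2i. The log2 fold changes of −0.46 (SE 0.14, adjusted p = 0.287) and −0.24 (SE 0.14, adjusted p = 0.912), and their mean of −0.35 (SE 0.10, adjusted p = 0.111), did not pass edgeR's quasi-likelihood test without a replicate block. With the block, edgeR gave −0.24 (SE 0.07, adjusted p = 0.0918) for IFN-γ + EZH2i against IFN-γ. On the TPM scale the Ctr libraries (21.0 to 27.3) and the EZH2i libraries (18.2 to 23.9) overlapped.

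Cdkn1c (ENSMUSG00000037664, chr7:143458339-143461050, minus strand), an imprinted gene that encodes p57, had the lowest mean of the 7 in TPM in every group. On the CPM scale it had 9.82, 6.04 and 2.66 in Ctr, 17.1, 7.86 and 4.22 in EZH2i, 10.1, 7.80 and 2.50 in IFN-γ, and 15.3, 7.38 and 3.95 in IFN-γ + EZH2i. The order of the replicate numbers was the same in all 4 groups, with replicate 1 highest and replicate 3 lowest, and all groups overlapped. Without a replicate block, the mean effect was 0.52 with a 95% confidence interval of −0.51 to 1.55 (adjusted p = 0.762), the widest interval of the 7 in that fit.

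Replicate 3 had the lowest level in all 4 groups for Cdkn2a, Cdkn1a, Cdkn1b and Cdkn1c, and in 3 of 4 for Cdkn2b and Cdkn2d. The summed level of 5 astrocyte markers was highest in the replicate 3 libraries, at 175 to 277 TPM against 54.8 to 162 TPM in the others. These libraries were also the deepest, with 42555540 to 66546017 estimated counts against at most 37287081 in the others. The part of either in the spread of the members was not tested.

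After 6 h of IFN-γ, no CDK inhibitor gene passed the test in the fit without a replicate block. In IFN-γ against Ctr, 0 of 7 members passed edgeR's quasi-likelihood test, where 8.75% of all genes did, and DESeq2 called 0 as well. At an unadjusted p under 0.05 there were 0, against 19% of all genes, and no member was higher (13.5% of all genes) or lower (9.52%) without overlap. In IFN-γ + EZH2i against EZH2i, 0 of 7 passed, against 8.07% of all genes, and DESeq2 again called 0. There were 0 at an unadjusted p under 0.05, against 17.7%.

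The log2 fold changes of the 7 genes lay between −0.35 (Cdkn2b) and 0.38 (Cdkn1a) for IFN-γ against Ctr, and between −0.26 (Cdkn2b) and 0.27 (Cdkn2a) in the presence of EZH2i. For Cdkn2a the 95% confidence interval was −0.69 to 0.65 in the former and −0.39 to 0.92 in the latter. Cdkn2c alone did not overlap in the latter comparison, with all IFN-γ + EZH2i libraries below all EZH2i libraries (9.66% of all genes were lower without overlap, and 11.8% higher), at a log2 fold change of −0.18 (SE 0.16, adjusted p = 0.694). With the replicate number as a block, which these libraries pair by, 1 member was called in IFN-γ + EZH2i against EZH2i, against 19.3% of all genes. It was Cdkn1b, with a log2 fold change of 0.23 (SE 0.07, adjusted p = 0.0372) and 1.19, 1.19 and 1.15 times higher levels in the numbered pairs.

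**Figure D3:**
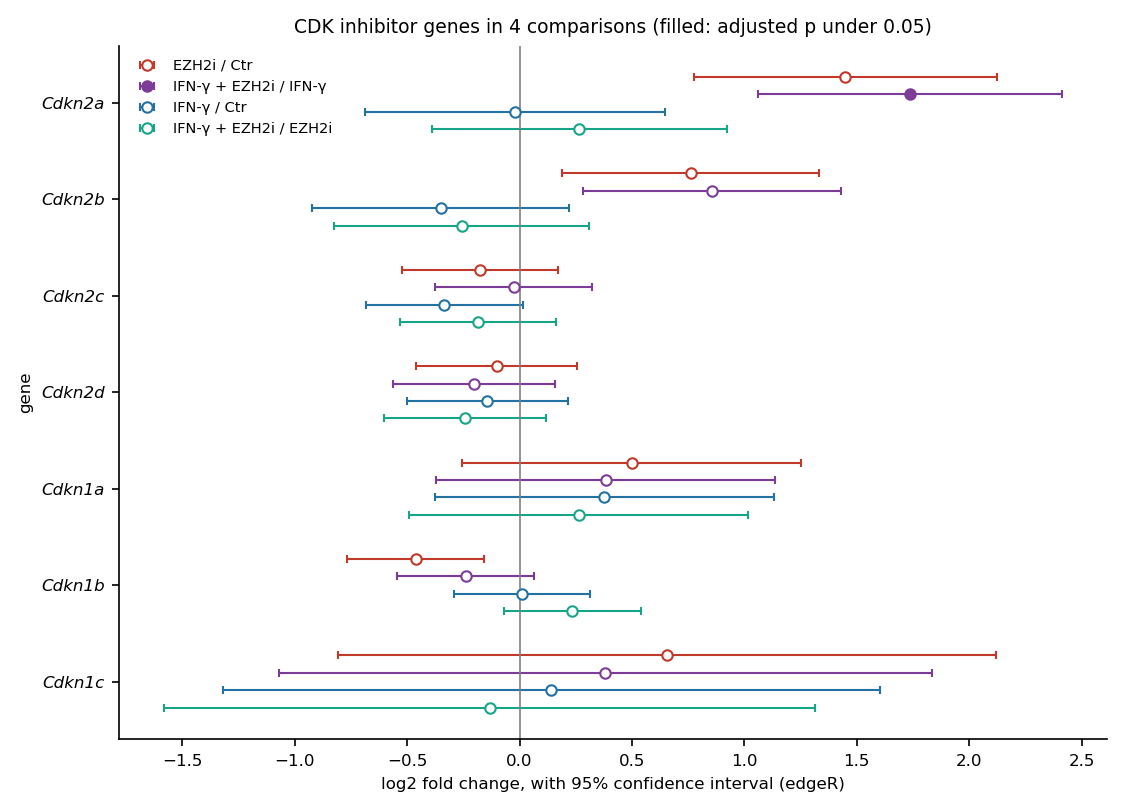
Log2 fold changes of the 7 genes in 4 comparisons with 95% confidence intervals from the edgeR fit of all 12 libraries; filled points passed an adjusted p of 0.05. Both EZH2i comparisons of Cdkn2a and of Cdkn2b, and EZH2i against Ctr for Cdkn1b, have intervals that do not include 0, and only Cdkn2a in IFN-γ + EZH2i against IFN-γ is filled.

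Of the genes annotated within 200 kb of Cdkn2a, 4 passed the filter on low counts, Cdkn2b among them. Mtap, a gene of the methionine salvage pathway 93390 bases away, was at 84.4 CPM on average in Ctr and 104 CPM in EZH2i, and its mean effect of 0.21 (SE 0.11, adjusted p = 0.454) did not pass. Gm12608 and Gm12609, with at most 26 and 19 counts in any library, did not pass either, and neither did the genes tested around Cdkn2b other than Cdkn2a. Over the same distance around the other 5 members, 0 of 3 (Cdkn2c), 15 (Cdkn2d), 11 (Cdkn1a), 7 (Cdkn1b) and 6 (Cdkn1c) tested genes passed for the mean effect or either EZH2i comparison.

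The profiles over the 12 libraries that were most like that of Cdkn2a, by the root mean square difference of z-scored log2 CPM, were those of Dcxr (0.192), She (0.212) and Lamb1 (0.238). The median over all genes was 1.35, and Cdkn2b ranked 363. For Cdkn2b they were Six4 (0.256), Sult4a1 (0.267) and Gpr85 (0.302), against a median of 1.38.

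Among the Polycomb and H3K27 demethylase genes linked to the Ink4a/Arf locus, 1 of 11 rose with EZH2i and 0 fell, in either comparison and in the mean effect. This was Bmi1, a PRC1 subunit known as a repressor of Cdkn2a. It had 78.7, 81.7 and 82.6 CPM in the Ctr libraries, 133, 119 and 119 CPM with EZH2i, 87.4, 84.5 and 89.7 CPM with IFN-γ and 131, 145 and 158 CPM with both. All libraries with EZH2i were above all without it, with log2 fold changes of 0.61 (adjusted p = 0.0274), 0.73 (adjusted p = 0.0140) and a mean of 0.67 (SE 0.07, adjusted p = 0.000696). The median of the list for the mean effect was −0.09, against −0.00069 for all genes, and Kdm6b, an H3K27 demethylase, had the lowest value (−0.57, adjusted p = 0.395).

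Downstream of p19Arf, 0 of 6 genes of the ARF-MDM2-p53 axis passed for the mean effect of EZH2i. Trp53, with 65.6 ± 8.79 CPM in Ctr against 40.0 ± 7.16 CPM in EZH2i (SD, n = 3), had a mean effect of −0.58 (SE 0.24, adjusted p = 0.322), and Mdm2 had a mean effect of 0.22 (adjusted p = 0.448). Of 17 p53 target genes, which do not include Cdkn1a, 6 rose and 0 fell in the mean effect (2.03% of all genes rose), with a list median of 0.47. They were Perp, Pmaip1, Btg2, Trp53inp1, Eda2r and Ccng1. In the separate comparisons, 1 rose in EZH2i against Ctr (Perp) and 2 in IFN-γ + EZH2i against IFN-γ (Ccng1 and Trp53inp1). In the latter comparison 8 rose with the replicate block, where 3.94% of all genes passed.

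Pmaip1, which encodes the pro-apoptotic protein NOXA, had mean levels of 7.06 CPM in Ctr, 15.8 in EZH2i, 7.14 in IFN-γ and 18.8 in IFN-γ + EZH2i, and a mean effect of 1.27 (SE 0.22, adjusted p = 0.0107). Btg2, an antiproliferative gene, had a mean effect of 0.91 (SE 0.18, adjusted p = 0.0212), and Trp53inp1 one of 0.74 (SE 0.12, adjusted p = 0.00583). Perp had the largest value of the list, 2.0 (SE 0.31, adjusted p = 0.00585), on at most 49 counts in any library. Eda2r and Ccng1 had mean effects of 0.70 and 0.64. Of all 17 listed genes, 14 had a positive mean effect and 3 a negative one. The values of those not called ran from −0.23 for Tigar to 0.65 for Fas (adjusted p = 0.0604).

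In the fit without a replicate block, the kinases and the cell-cycle program that CDK inhibitors act on showed no change that passed with EZH2i. Of 12 genes for CDKs and cyclins, 13 RB and E2F genes and 18 S phase and mitosis genes, 0 rose and 0 fell in either EZH2i comparison or the mean effect. With the replicate block, 1 of the CDK and cyclin genes, Cdk6, rose in IFN-γ + EZH2i against IFN-γ (adjusted p = 0.0182). In the mean effect the block made 3 CDK and cyclin genes pass as higher and 1 as lower, and 2 RB and E2F genes as lower. No S phase and mitosis gene passed there. The medians for the mean effect were 0.02, −0.10 and −0.16. In EZH2i against Ctr all 18 S phase and mitosis genes had a negative log2 fold change, with a median of −0.25, and none passed. The 6 p27 degradation genes had 0 calls and a median of 0.11, and Skp2, which targets p27 for degradation, had a mean effect of −0.25 (adjusted p = 0.393). In the imprinted Kcnq1ot1 domain that holds Cdkn1c, 7 of 10 genes passed the filter on low counts, and 0 were called with EZH2i.

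With IFN-γ, 1 of the 12 CDK and cyclin genes rose in both comparisons. It was Cdk6, the kinase bound by INK4 proteins, with log2 fold changes of 1.21 against Ctr (SE 0.26, adjusted p = 0.0114) and 1.52 in the presence of EZH2i (SE 0.26, adjusted p = 0.0026). In the latter comparison the replicate block also made Cdk2 and Ccnd3 pass as lower, with log2 fold changes of −0.32 (adjusted p = 0.0307) and −0.54 (adjusted p = 0.00112). Among the RB and E2F genes, Rbl2 and E2f1 fell with IFN-γ against Ctr, by 0.43 and 0.61 on the log2 scale, and Rbl2 alone in the presence of EZH2i, by 0.52. These 5 genes, like Trp53, Mdm2, Skp2, Kdm6b, Tigar, Fas, Eda2r and Ccng1 above, were named after their values were seen. Without a replicate block, S phase and mitosis genes had 0 calls in either IFN-γ comparison, with 17 of 18 negative in each and medians of −0.32 and −0.17. With the block, 8 of the 18 passed as lower in IFN-γ against Ctr, where libraries were not treated as paired. In that fit 3 of 12 CDK and cyclin genes and 5 of 13 RB and E2F genes also passed as lower (4032 calls over all genes). In the presence of EZH2i, 0 S phase and mitosis genes passed with the block.

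**Figure D4:**
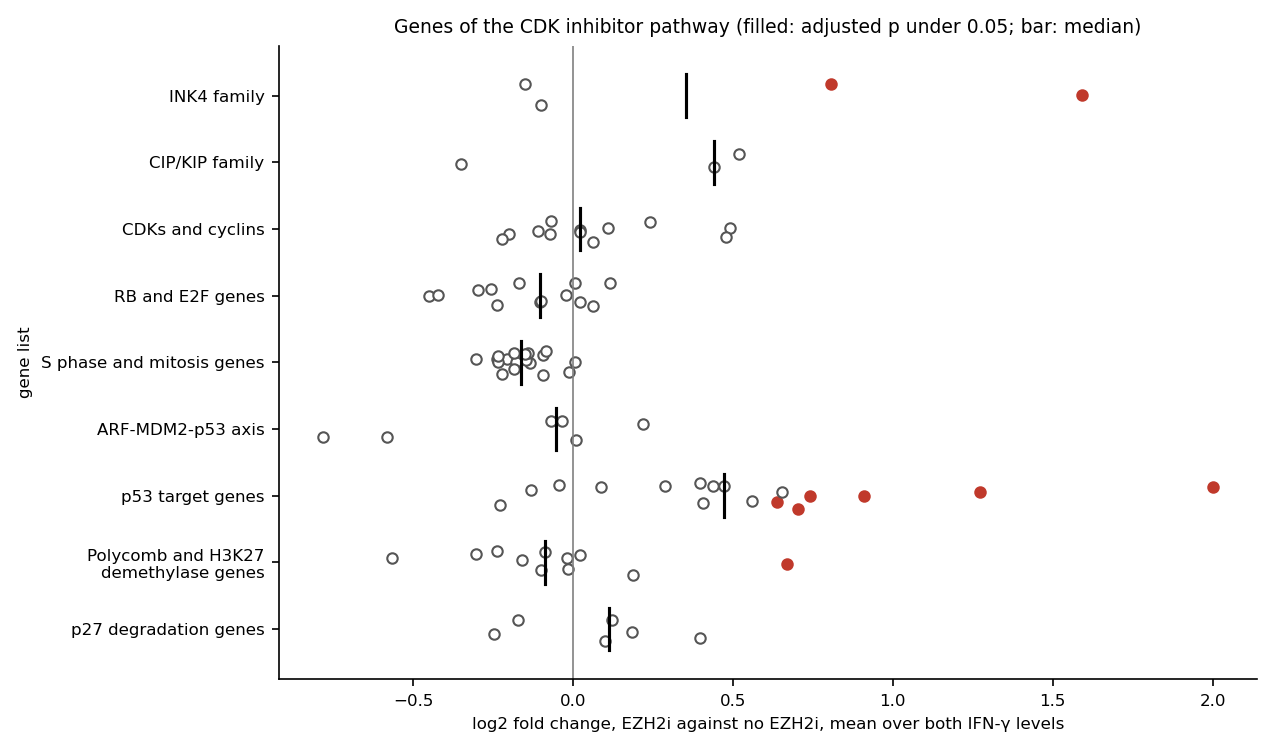
Log2 fold change with EZH2i, averaged over both IFN-γ levels, for each tested gene of 9 lists, with the list median as a bar; filled points passed an adjusted p of 0.05. The filled points are Cdkn2a and Cdkn2b, 6 p53 target genes and Bmi1, all above 0, and the S phase and mitosis genes lie close to 0 with a median of −0.16.

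Markers of other cell types moved with EZH2i beside Cdkn2a and Cdkn2b. Of 5 neuron markers, 3 rose in the mean effect, Snap25 (1.13), Syt1 (0.96) and Stmn2 (2.45), and the summed level of the list was 14.5 to 19.5 TPM in Ctr and 26.3 to 42.9 TPM in EZH2i. With IFN-γ it was 295 to 553 TPM without the inhibitor and 363 to 709 TPM with it. In each IFN-γ comparison 3 of the 5 neuron markers were called as higher, and the other 2 had negative log2 fold changes. The astrocyte list had 0 of 5 called without a replicate block, and sums of 54.8 to 175 TPM in Ctr and 142 to 277 TPM in EZH2i. With the block, 3 of 5 astrocyte markers and 4 of 5 neuron markers rose in the mean effect, where 2317 of all 18995 genes passed. The oligodendrocyte list had 6 of 7 genes tested, of which Mbp fell by 0.93 on the log2 scale in the mean effect. All 6 were negative there (median −0.52), and 6 fell with the replicate block. The list summed to 621 to 850 TPM in Ctr, 419 to 660 in EZH2i, 650 to 851 in IFN-γ and 320 to 636 in IFN-γ + EZH2i. Of the OPC list, 0 of 7 were called with EZH2i in the fit without a replicate block. In the mean effect 6 were negative and 1 positive (median −0.37), and 5 fell with the block. The OPC sums were 1014 to 1561 TPM in Ctr and 1278 to 1460 in EZH2i. With IFN-γ they were 1033 to 1323 TPM without the inhibitor and 705 to 953 with it. The endothelial list had 0 of 3 tested genes called without the block, and 1 rose with it in the mean effect. The list summed to at most 6.12 TPM. With EZH2i, 0 of 2 tested microglia markers and 0 of 4 tested fibroblast and mural markers were called. The part of these markers in the values of the CDK inhibitor genes was not tested, and in bulk samples fewer cells of a type and less RNA per cell cannot be told apart.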

How the data were processed

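RNA was taken from 12 cultures of primary mouse OPCs, and total RNA libraries were sequenced as stranded read pairs. The deposited estimated counts and TPM of each transcript were made by the authors with Salmon 0.8.2 per the submitters' processing notes, which also list STAR and DESeq2. The deposited TPM values also correct for the effective length of each transcript. The effective lengths deposited by the authors were used only for length-scaled TPM. The 2 tables of DESeq2 comparisons deposited by the authors, with fold changes and p-values, were not used.

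All 141862 transcripts matched GENCODE M21 (GRCm38). Estimated counts were summed per gene, rounded, and tested in R 4.3.3 with edgeR 4.0.16 (TMM factors, default filter on low counts, quasi-likelihood test), fitted once over the 12 libraries with a term for the group alone. P-values were adjusted by the Benjamini-Hochberg method over 18995 genes, and an adjusted p under 0.05 was called. Intervals are 95% confidence intervals of the fit. Within each group, replicates differed by a chi-square of at least 31.3 per gene, so no replicates of a group hold the same reads. Counting error is largest in the shallowest library (17403896 counts).

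The fits were repeated with DESeq2 1.42.0, the replicate block, length-scaled TPM, RLE factors, a minimum of 10 counts in every library or no such filter, only the groups compared, mitochondrial and rRNA genes left out, and each library left out. The block in a fit of only the groups compared was chosen once the data had been seen. The labels number the replicates of each group. For IFN-γ + EZH2i, the deviations of same-numbered libraries from their group means had correlations of 0.493 or more with IFN-γ and of 0.496 or more with EZH2i. For EZH2i with Ctr they were 0.441, 0.0467 and 0.495 in replicates 1, 2 and 3. For IFN-γ with Ctr they were 0.490, 0.0854 and 0.544, so only replicate 2 was low in these comparisons. The numbers were therefore taken to pair libraries in the 2 comparisons of IFN-γ + EZH2i and not in those with Ctr. The main values of every comparison are still from the fit without the block, and values with the block are named as such.

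The fits and the permutation test were tested on simulated data. Promoter windows are from RefSeq. The members and gene lists were chosen with earlier results of these data known. All members, Ezh2, at most 4 called genes per direction of each list, genes within 200 kb of a called member and the 3 most similar profiles were to be named. Lists were INK4, CIP/KIP, CDKs and cyclins, RB and E2F, S phase and mitosis, ARF-MDM2-p53 axis, p53 targets, Polycomb and demethylase, Kcnq1ot1 domain, p27 degradation, and markers of 7 cell types. Chromatin data of the study were not analysed here.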

Additional observations from a re-analysis of the deposited data

How the results depend on the processing

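The number of CDK inhibitor genes past the threshold in EZH2i against Ctr was 0. It was 1 with DESeq2 and 1 without a filter on low counts. The replicate block gave 3 in both forms, with all 12 libraries (771 over all genes) or only the groups compared (688 over all genes). The latter form was chosen after seeing the data. In IFN-γ + EZH2i against IFN-γ the number of members was 1. It was 0 with at least 10 counts in every library, with length-scaled TPM or with only the groups compared. There the replicate block gave 2 (748 over all genes), and 4 with only the groups compared (1718 over all genes). For the mean effect of EZH2i it was 2, and 1 with RLE factors or at least 10 counts in every library. The replicate block gave 5, where 2317 of the 18995 genes passed. It added Cdkn1a (0.44, adjusted p = 0.0322), Cdkn1b (−0.35, adjusted p = 0.000847) and Cdkn1c (0.50, adjusted p = 0.0136). With IFN-γ it was 0 in both comparisons, and 1 in each with the block over all libraries. These were Cdkn2c in IFN-γ against Ctr (−0.34, adjusted p = 0.0337) and Cdkn1b in IFN-γ + EZH2i against EZH2i. In the paired comparisons, the block over all libraries changed the call of Cdkn2b in IFN-γ + EZH2i against IFN-γ and of Cdkn1b in IFN-γ + EZH2i against EZH2i, and of no other member. With only the groups compared, Cdkn1a (0.35, adjusted p = 0.0159) and Cdkn1b (−0.25, adjusted p = 0.0351) also passed in IFN-γ + EZH2i against IFN-γ. Of the p53 target genes, the block over all libraries made 10 of 17 pass in EZH2i against Ctr (771 over all 18995 genes). It made 13 pass in the mean effect (2317 over all genes), and all of these were higher. In the mean effect the block also made 1 of 6 ARF-MDM2-p53 axis genes pass as higher and 2 as lower, and 2 of 11 Polycomb genes as lower. Among the lists in IFN-γ + EZH2i against IFN-γ, the block also made 1 of 6 p27 degradation genes pass as higher. The same held for 2 of 5 astrocyte markers and 1 of 3 endothelial markers, and neuron markers called as higher went from 1 to 4 of 5. As lower, the block made 1 of 6 ARF-MDM2-p53 axis genes, 4 of 6 oligodendrocyte markers and 2 of 7 OPC markers pass. In IFN-γ + EZH2i against EZH2i it raised the p53 target genes called as higher from 1 to 2, the Polycomb genes from 0 to 1 in each direction and the astrocyte markers from 0 to 1, and the OPC markers called as lower from 3 to 5. Leaving out each library gave 0 to 1 members in either EZH2i comparison and 1 to 2 for the mean effect, and 0 in the IFN-γ comparisons and the interaction.

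Over all genes, EZH2i against Ctr had 77 calls, and 308 with DESeq2, 121 without a filter, 29 with at least 10 counts, 48 with length-scaled TPM, 33 with only the groups compared, and 771 or 688 with the block. IFN-γ + EZH2i against IFN-γ had 67, and between 7 (only the groups compared) and 1718 (with the block as well). The mean effect had 422, and between 238 and 2317. IFN-γ against Ctr had 1663, and 4032 with the block. IFN-γ + EZH2i against EZH2i had 1533, and 3661 with the block.

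With all libraries, the log2 fold changes of 2 members changed sign in some setting. Cdkn2c in IFN-γ + EZH2i against IFN-γ was 0.015 with length-scaled TPM. Cdkn1b in IFN-γ against Ctr was −0.0019 with DESeq2, −0.00396 with RLE factors and −0.025 with length-scaled TPM. Leaving out 1 library, signs changed within −0.23 to 0.0086 for Cdkn2d and −0.027 to 1.19 for Cdkn1c in EZH2i against Ctr. The ranges were −0.19 to 0.086 for Cdkn2c and −0.26 to 0.78 for Cdkn1c in IFN-γ + EZH2i against IFN-γ. They were −0.25 to 0.12 for Cdkn2a, −0.094 to 0.089 for Cdkn1b and −0.26 to 0.66 for Cdkn1c in IFN-γ against Ctr. In IFN-γ + EZH2i against EZH2i they were −0.47 to 0.032 for Cdkn2b, −0.090 to 0.53 for Cdkn1a and −0.79 to 0.55 for Cdkn1c. The cause of these shifts was not tested. The transcript results kept direction and call in CPM, with each library left out and, for the levels of p16Ink4a and p19Arf, with both other pseudocounts, which do not enter the share.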
